A study of Mus musculus with 6 samples.

Results

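Amino acid synthesis was followed through 10 genes in RNA-seq of mouse leptotene/zygotene (L/Z) spermatocytes, cells that have just entered meiotic prophase. The genes were Asns (asparagine), Phgdh, Psat1 and Psph (serine), Shmt1, Shmt2 and Mthfd2 (glycine and one-carbon units), Aldh18a1 and Pycr1 (proline) and Cth (cysteine). They are 10 of the 54532 genes in the count table and were matched by gene symbol. Asns was selected on its higher level in the Eef1g-cKO libraries, and the other genes were selected by the step that their enzymes catalyse. The genotype differences of the members are therefore given as a description, and a p-value for a member appears only where a setting changed its call.

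The cells were sorted by flow cytometry after Hoechst staining from the testes of mice aged 12 days postpartum (dpp). Control males, labelled wild type, gave 3 libraries, and Eef1g-cKO males gave the other 3. Eef1g-cKO males carry floxed Eef1g on a C57BL/6J background, and Stra8-GFPCre removes exons 2 to 7. Eef1g encodes eEF1G, the gamma subunit of elongation factor eEF1. Cre is driven by Stra8, a gene switched on in germ cells on their way into meiosis, and the somatic cells of the testis are not its target. Whether each library came from its own animal or from pooled animals is not given in the sources used here, so the SD and SE measure only the spread between these libraries.

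Cells make non-essential amino acids from intermediates of glycolysis and the citric acid cycle. The serine branch runs from 3-phosphoglycerate through PHGDH, PSAT1 and PSPH, and the SHMT enzymes then split serine into glycine and a folate-bound one-carbon unit. Many of these genes are textbook targets of ATF4, a transcription factor whose translation increases when amino acids run short or the endoplasmic reticulum is stressed. ATF4 pairs with C/EBP proteins on a short composite DNA element, and the Asns promoter is one of the best-known places where such an element lies.

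Short stretches around the motifs are shown because they are the places in these promoters where the letters of a known regulatory motif occur. RefSeq promoters (GRCm38.p6, 250 bases before to 50 bases after each annotated start) were at hand for 9 of the 10 genes, and Cth had no entry. Both strands were searched for TGATGNAA, the core of the ATF4-C/EBP composite element, and for CACGTG, an E-box that reads the same on both strands. Capitals mark the match, and all 3 sequences are written 5′ to 3′ on the minus strand, the coding strand of these genes.
Asns, chr6:7693214-7693243: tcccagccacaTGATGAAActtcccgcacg
Pycr1, chr11:120643833-120643862: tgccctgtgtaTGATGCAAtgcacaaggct
Aldh18a1, chr19:40588505-40588534: ggagggggccgcCACGTGgagcgtgggcgc

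In Asns the match began 23 bases before the start annotated by RefSeq, and in Pycr1 it began 103 bases before it. The Asns gene of the count table reaches to 7693254, so by that annotation the Asns match lies inside the gene. The E-box of Aldh18a1 began 59 bases before the start. The windows of Phgdh, Psat1, Psph, Shmt1, Shmt2 and Mthfd2 held neither set of letters, which says nothing about binding elsewhere. Those of Psat1, Shmt1 and Mthfd2 lie inside the gene spans of the count table. Among all 32851 promoter windows of the same length, 3.97% held TGATGNAA and 7.15% held CACGTG. A match is a description of letters, and no binding was measured here.

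The libraries held 763133 to 2617648 reads assigned to genes, and the shallowest was Eef1g-cKO replicate 3. Values are given as CPM, meaning reads of a gene for every 1000000 library reads once library sizes are scaled by TMM. A count of 3 reads, used as the upper limit behind a count of 0, corresponded to 1.18 to 4.63 CPM. No molecular identifiers were used, so such limits cover counting error only. Eef1g itself had 211.59 to 225.73 CPM in Control and 118.93 to 150.56 CPM in Eef1g-cKO libraries. On the log2 scale the difference was −0.68 (SE 0.20; adjusted p = 0.029 by edgeR's quasi-likelihood test), and the adjusted p rose to between 0.084 and 0.12 without any 1 Control library or without Eef1g-cKO replicate 1. Markers of L/Z spermatocytes summed to 10031 to 10937 CPM in Control and 19721 to 25391 CPM in Eef1g-cKO libraries, with Sycp3 at 1341 and 2904 CPM and Dmc1 at 359 and 1317 CPM on average. Of 12 tested L/Z markers, 6 passed as higher and 1 as lower (Stra8, at 509 and 316 CPM on average). Markers of spermatogonia summed to 1696 to 2011 CPM in Control and 759 to 894 CPM in Eef1g-cKO, and those of Sertoli cells to 198 to 581 CPM and 32.4 to 105 CPM. Of these 2 marker sets, 7 of 8 tested spermatogonial genes (Kit among them) and 4 of 6 tested Sertoli genes passed as lower. Peritubular and stromal markers summed to 163 to 302 CPM in Control and 23.2 to 75.3 CPM in Eef1g-cKO (3 of 4 tested lower), pachytene and later germ cell markers to 25.2 to 46.5 CPM and 3.09 to 18.4 CPM (with Adam3, Acrv1 and Prm2 at 0), blood cell markers to 7.84 to 96.2 CPM and 3.23 to 94.2 CPM (with Cd52 and Csf1r at 0) and Leydig cell markers to at most 10.7 CPM (with Cyp17a1, Hsd3b1 and Hsd3b6 at 0). In bulk samples, fewer cells of a type and less RNA per cell cannot be told apart.

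Asns, which encodes asparagine synthetase and so joins an amide nitrogen from glutamine to aspartate, had the largest difference between genotypes among the tested members. It had 17, 14 and 33 reads in Control replicates 1 to 3, or 12.98, 7.35 and 18.47 CPM. In Eef1g-cKO replicates 1 to 3 it had 119, 321 and 60 reads, or 96.23, 125.86 and 92.67 CPM. The groups did not overlap, and the lowest Eef1g-cKO library stood well above the highest Control library. Mean levels were 12.9 ± 5.56 CPM for Control and 105 ± 18.2 CPM for the knockout libraries (SD, n = 3). The fitted fold was 8.15, a log2 fold change of 3.03 (SE 0.38), and the log2 value stayed between 2.73 and 3.40 under all 16 alternative settings. Markers of L/Z spermatocytes were higher in the same libraries, with 6 of 12 tested passing as higher and 1 as lower, and their part in the Asns difference was not tested. Asns (ENSMUSG00000029752) lies on the minus strand of chromosome 6 from 7675169 to 7693254 (GRCm38), and no other annotated gene overlapped it.

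**Figure D1:**
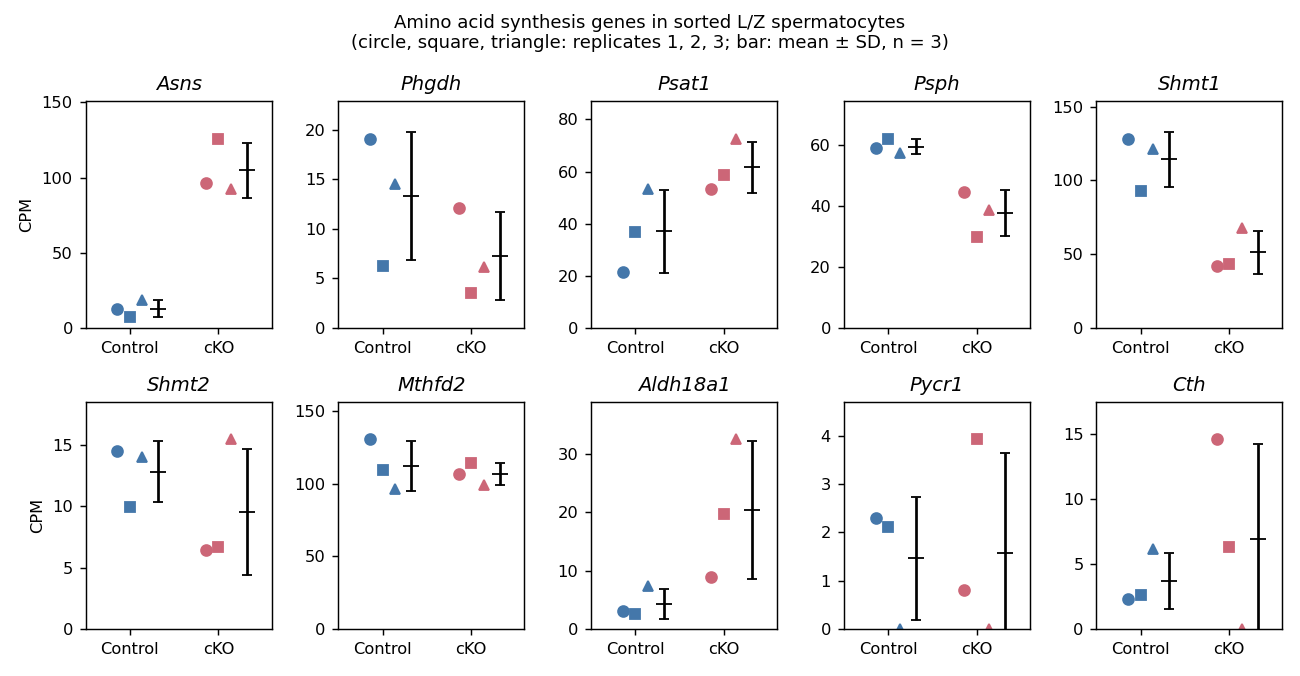
CPM of each of the 10 genes (vertical axis, its own scale in each panel) in the 3 Control (blue) and 3 Eef1g-cKO (red) libraries, with replicates 1, 2 and 3 as circle, square and triangle and bars for mean ± SD. Asns went from at most 18.47 CPM in Control to at least 92.67 CPM in Eef1g-cKO, whereas Mthfd2 stayed between 96.28 and 130.52 CPM throughout.

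None of the 3 genes of the serine branch passed the edgeR test, also at an unadjusted p under 0.05, or any alternative that was run, DESeq2 and limma-voom included. Its first enzyme, PHGDH, oxidises 3-phosphoglycerate, and Phgdh had few reads. Phgdh stood at 19.08, 6.30 and 14.55 CPM in Control and 12.13, 3.53 and 6.18 CPM in Eef1g-cKO replicates 1 to 3. The groups overlapped widely, with a log2 fold change of −0.88 (SE 0.75). These values rest on 12 to 26 reads per Control library and 4 to 15 reads per Eef1g-cKO library.

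PSAT1, the aminotransferase at the next step, takes its nitrogen from glutamate. Psat1 had 21.37, 36.75 and 53.18 CPM in Control and 53.37, 58.81 and 72.60 CPM in Eef1g-cKO libraries. Eef1g-cKO was higher without overlap, although the nearest libraries of the groups, Control replicate 3 and Eef1g-cKO replicate 1, were nearly level. The log2 fold change was 0.71 (SE 0.37), and Psat1 was not among the genes that passed the test.

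PSPH, the phosphatase that releases free serine, closes the branch. Psph had 58.77, 61.94 and 57.10 CPM in Control and 44.47, 29.80 and 38.61 CPM in Eef1g-cKO libraries, so every Eef1g-cKO library was below every Control library. This amounted to −0.67 on the log2 scale (SE 0.33), which did not pass the test. Psph (chromosome 5, 129765558 to 129787449, minus strand) shares 452 exonic bases with Cct6a on the opposite strand. Cct6a held 4138 reads over the 6 libraries, and since strand use in the counting is not stated, reads of the shared stretch cannot be assigned with certainty.

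SHMT1, the cytosolic serine hydroxymethyltransferase, makes glycine and methylene-tetrahydrofolate from serine, and SHMT2 does the same in mitochondria. Shmt1 had 128.23, 92.92 and 121.47 CPM in Control replicates 1 to 3. It had 42.05, 43.52 and 67.96 CPM in Eef1g-cKO replicates 1 to 3, with every Eef1g-cKO library below every Control library. Mean levels were 114 ± 18.7 CPM and 51.2 ± 14.6 CPM, and the log2 fold change was −1.19 (SE 0.29). Shmt1 was the member that passed the test as lower. Without Control replicate 1 or Control replicate 3 it no longer passed, with adjusted p-values of 0.069 and 0.062. The marker sums of spermatogonia and of Sertoli cells were lower in the same 3 libraries, and their part in the Shmt1 and Psph values was not tested. Shmt1 shares 184 exonic bases with Smcr8 on the opposite strand, which held 63 reads in all.

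Shmt2 was much the scarcer transcript. It stood at 14.50, 9.97 and 13.99 CPM in Control and 6.47, 6.67 and 15.45 CPM in Eef1g-cKO libraries. Its groups overlapped, because Eef1g-cKO replicate 3 had the highest value of all on 10 reads. The log2 fold change was −0.50 (SE 0.69). Per kilobase of gene length, Shmt1 made up 87.4% to 88.2% of the summed Shmt1 and Shmt2 level in Control libraries and 77.9% to 83.9% in Eef1g-cKO libraries.

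MTHFD2, the mitochondrial enzyme that oxidises methylene-tetrahydrofolate, is often named with ATF4 targets. Mthfd2 had 130.52, 109.19 and 96.28 CPM in Control and 106.74, 114.10 and 98.85 CPM in Eef1g-cKO libraries. The Eef1g-cKO values lay inside the Control range, and the log2 fold change was −0.06 (SE 0.24). A value this close to 0 changed sign between settings, and it was 0.13 with an offset for GC content.

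**Figure D2:**
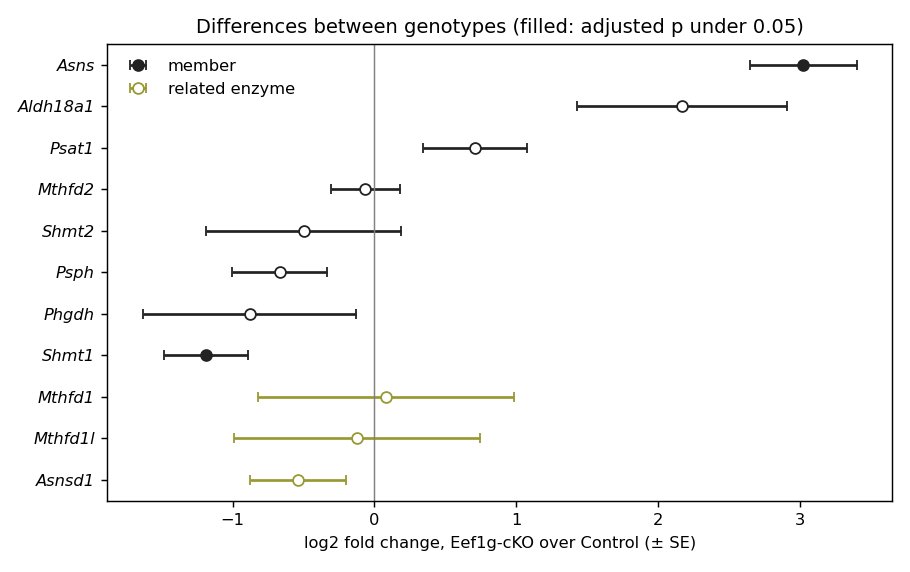
Log2 fold change of Eef1g-cKO over Control (horizontal axis) with its SE for the 8 members tested (black) and 3 related enzymes (olive), with filled points for an adjusted p under 0.05. Asns at 3.03 and Shmt1 at −1.19 are the filled points, and the related enzymes Mthfd1, Mthfd1l and Asnsd1 lie between 0.08 and −0.54.

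ALDH18A1 carries out the first steps from glutamate to proline, and PYCR1 is one of the reductases that finish the route. Aldh18a1 had 4, 5 and 13 reads in Control and 11, 50 and 21 reads in Eef1g-cKO libraries. These counts gave 3.05, 2.62 and 7.28 CPM and then 8.89, 19.60 and 32.44 CPM, without overlap. The log2 fold change was 2.17 (SE 0.74), the second largest among the members. It did not pass with all 6 libraries, but it passed without Eef1g-cKO replicate 1, at 2.56 on the log2 scale and an adjusted p of 0.035. It also passed with DESeq2, at 2.19 and an adjusted p of 0.031, and with a GC content offset, at 2.50 and 0.036. In Control only replicate 3 held at least 10 reads, so Aldh18a1 met the low-count filter through its Eef1g-cKO libraries. These p-values are therefore a description, and no support is drawn from them.

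Pycr1 had 3, 4 and 0 reads in Control and 1, 10 and 0 reads in Eef1g-cKO libraries, which left it below the low-count filter. The count of 0 allowed up to 1.68 CPM in Control replicate 3 and up to 4.63 CPM in Eef1g-cKO replicate 3. At this depth a difference in Pycr1 was not detectable. CTH, cystathionine gamma-lyase, releases cysteine from cystathionine. Cth had 3, 5 and 11 reads in Control and 18, 16 and 0 reads in Eef1g-cKO libraries, and it too was not tested. Its Eef1g-cKO values ran from 0 to 14.56 CPM and so spanned every Control library.

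Counted together, 1 of the 8 tested members passed the test as higher (Asns) and 1 as lower (Shmt1), and both also passed a log2 fold change limit of 1. Of all 8513 tested genes, 7.8% were higher and 6.01% lower at an adjusted p under 0.05, and 3.42% and 4.96% with the fold limit. These were 664 higher and 512 lower genes without the limit, and 333 and 643 with library totals or 463 and 639 with upper-quartile scaling, while the members' counts were 1 and 1 under each of these scalings. CPM values of the groups did not overlap for 3 members with Eef1g-cKO higher (Asns, Psat1 and Aldh18a1) and for 2 with Eef1g-cKO lower (Psph and Shmt1). Among all tested genes these shares were 16.4% and 18.1%. The median log2 fold change was −0.28 over the tested members and −0.05 over all tested genes. Because the choice of members used this contrast, nothing is read from their counts against these shares.

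Levels can be set between genes only per length, as RPKM, the CPM divided by the gene length in kilobases. In Control, Mthfd2 (32.1 ± 4.96 RPKM) and Shmt1 (29.4 ± 4.83 RPKM) led, and their library ranges overlapped. Psph followed at 13.7 ± 0.57 RPKM, clear of both neighbours. Psat1 (8.72 ± 3.74), Phgdh (5.35 ± 2.61), Asns (4.73 ± 2.03) and Shmt2 (4.12 ± 0.80 RPKM) came next, and each overlapped the gene after it within this run. Cth, Aldh18a1 and Pycr1 had mean levels of 1.32, 1.06 and 0.37 RPKM.

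In Eef1g-cKO libraries the order had a different head. Asns was first at 38.4 ± 6.66 RPKM, with its lowest library at 33.9 RPKM, above the highest Mthfd2 library at 32.7 RPKM. Before division by length the 2 genes overlapped, at 92.67 to 125.86 CPM for Asns and 98.85 to 114.10 CPM for Mthfd2. Their order therefore rests on the gene lengths used. Mthfd2 (30.6 ± 2.19 RPKM) was second and clear of Psat1 (14.5 ± 2.33 RPKM), which overlapped Shmt1 (13.2 ± 3.75 RPKM). Psph (8.69 ± 1.71 RPKM), Aldh18a1 (4.99 ± 2.89 RPKM), Shmt2, Phgdh, Cth and Pycr1 followed, and each of these overlapped its neighbour.

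Against the whole transcriptome, Asns lay above 30.4% of tested genes by mean RPKM in Control and above 82.3% in Eef1g-cKO. Mthfd2 kept nearly the same place, at 80.7% and 78.4%. Shmt1 went from 79.1% to 59.7%, and Aldh18a1 from 2.50% to 36.2%. Aldh18a1 was among the tested genes only through its Eef1g-cKO libraries. Psat1 lay above 47.8% of tested genes in Control and 61.9% in Eef1g-cKO, and Psph above 60.9% and 49.5%.

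**Figure D3:**
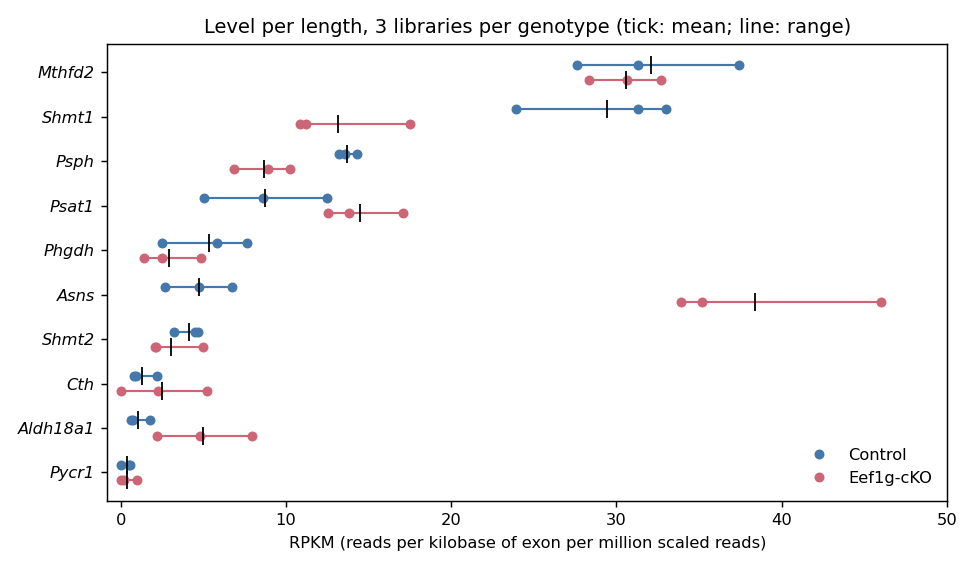
RPKM of the 10 genes (horizontal axis) in each of the 3 Control (blue) and 3 Eef1g-cKO (red) libraries, ordered by the Control mean, with ticks for means and lines for ranges. Asns is the 6th gene in Control at 4.73 RPKM and the first in Eef1g-cKO at 38.4 RPKM.

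The 10 genes together had a summed CPM, after TMM scaling, of similar size in each library. Their CPM summed to 393, 332 and 388 in Control replicates 1 to 3 and to 386, 412 and 425 in Eef1g-cKO replicates 1 to 3, so the ranges overlapped. Without Asns, the sums were 380, 324 and 370 CPM in Control and 289, 286 and 332 CPM in Eef1g-cKO. These ranges overlapped only between Control replicate 2 and Eef1g-cKO replicate 3. Asns took 2.22% to 4.76% of the summed CPM in Control libraries and 21.8% to 30.5% in Eef1g-cKO libraries.

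**Figure D4:**
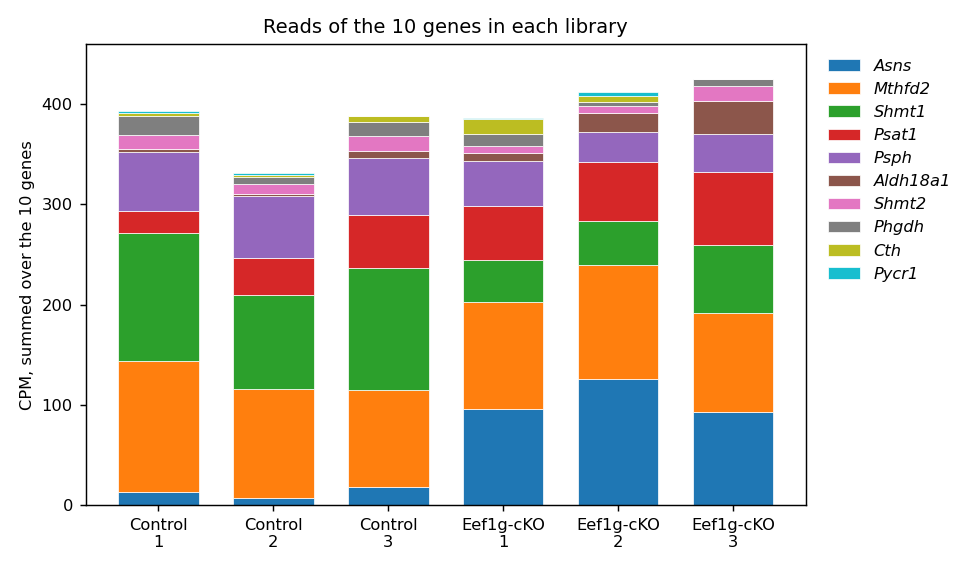
CPM of the 10 genes stacked within each library (vertical axis, from 0), with 3 Control libraries on the left and 3 Eef1g-cKO libraries on the right. The stacks are 332 to 393 CPM high in Control and 386 to 425 CPM in Eef1g-cKO, and the Asns block at the base grows from at most 4.76% to at least 21.8% of the stack.

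The spread between libraries differed from member to member. In Control, the coefficient of variation was 4.15% for Psph, 15.4% for Mthfd2 and 16.4% for Shmt1, against 10.2%, 7.42% and 7.34% from counting alone. Asns varied by 43.0% in Control, where counting alone gives 21.8%, and by 17.4% in Eef1g-cKO, where it gives 9.34%. Aldh18a1 varied by 59.5% in Control and 58.0% in Eef1g-cKO, where counting alone gives 37.8% and 21.2%. It was the least even of the tested members in Control.

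Correlation with Asns over the 6 libraries, on log2(CPM + 1) ranged widely among the members. It was 0.88 for Aldh18a1 and 0.73 for Psat1, −0.24 for Mthfd2, −0.46 for Phgdh and Shmt2, −0.86 for Shmt1 and −0.92 for Psph. These values are descriptions over libraries that share genotype, depth and scaling. Outside the members, and among genes averaging at least 50 reads, the highest correlations were those of Eaf2 (0.998), Rnf4 (0.994), Selenok (0.993), Hint1 (0.993) and Ube2v2 (0.993). EAF2 is a partner of a transcription elongation factor, RNF4 a ubiquitin ligase that recognises SUMO, SELENOK a selenoprotein of the endoplasmic reticulum, HINT1 a small nucleotide-binding protein and UBE2V2 a ubiquitin-conjugating enzyme variant. Eaf2 had 58.01, 44.10 and 72.77 CPM in Control and 202.16, 262.69 and 186.89 CPM in Eef1g-cKO replicates 1 to 3. In both groups its libraries ranked as those of Asns did. Since Eaf2 was picked for its correlation with Asns, this ranking is a description only. Its log2 fold change was 1.91 (SE 0.25), which is smaller than that of Asns.

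Other genes of amino acid and nucleotide synthesis were taken from 6 lists of 115 symbols, of which 54 were tested. Here 3 genes rose, 3 fell and 48 did not pass the test, where 7.8% of all tested genes were higher and 6.01% lower. The median log2 fold change was −0.05, as over all tested genes. Left-out libraries moved these counts, to 1 rising without Control replicate 2 or Control replicate 3 and to 6 falling without Eef1g-cKO replicate 2. The 3 that rose did so by less than 1 on the log2 scale, whereas the 3 that fell did so by more than 2. The lists were chosen with earlier results of these data known. Nothing is therefore read from the counts of any list against the shares of all tested genes. Adjusted p-values in the paragraphs on these lists come from the edgeR quasi-likelihood test across all tested genes.

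Next to Asns, the list for asparagine, aspartate, glutamate and alanine held 7 tested genes, of which 0 rose and 0 fell in edgeR. At an unadjusted p under 0.05 the counts were 0 and 1, and DESeq2 and limma-voom each called 0 in both directions. Asnsd1, which encodes a protein with an asparagine synthetase domain, had 62.1 ± 1.28 CPM and 43.9 ± 15.5 CPM, with overlapping groups and a difference of −0.54 on the log2 scale (SE 0.34, adjusted p = 0.32).

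In the serine, glycine and one-carbon list, 15 of 30 genes were tested, and 1 rose and 1 fell. Dld, the dihydrolipoamide dehydrogenase shared by the glycine cleavage system and several dehydrogenase complexes, rose by 0.79 on the log2 scale (SE 0.18, adjusted p = 0.0061), and its call was lost only with the replicate block and a GC content offset together, of 16 alternatives. Gcat, which splits 2-amino-3-ketobutyrate to glycine and acetyl-CoA, fell from 26.0 ± 4.05 CPM to 4.31 ± 3.47 CPM. The drop was −2.42 on the log2 scale (SE 0.65, adjusted p = 0.018), but it did not pass without any 1 Control library or without Eef1g-cKO replicate 1 (adjusted p 0.056 to 0.083), nor with the replicate block and a GC content offset together. Gcat held 37, 54 and 38 reads in Control and 2, 21 and 2 reads in Eef1g-cKO libraries. It thus met the low-count filter through its Control libraries, so its p-values are a description and no support is drawn from them. The cytosolic isozyme Mthfd1 had a log2 fold change of 0.08 (SE 0.90) and the mitochondrial isozyme Mthfd1l one of −0.12 (SE 0.87), both on few reads. Mthfd2l, the closest relative of Mthfd2, was not tested, with 10, 10 and 18 reads in Control and 0, 10 and 0 reads in Eef1g-cKO libraries.

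In the proline, ornithine, arginine and urea cycle list only 3 of 17 genes were tested, and 1 of them fell. Pycrl, an isozyme of Pycr1, had 7, 19 and 14 reads in Control and 4, 1 and 0 reads in Eef1g-cKO libraries and was not tested. Gatm, which makes the creatine precursor guanidinoacetate from arginine and glycine, fell from 213 ± 70.0 CPM to 44.9 ± 29.3 CPM, or by 2.26 on the log2 scale (SE 0.38, adjusted p = 0.0013). Sertoli and spermatogonial marker sums were lower in the same libraries as Gatm and Gcat, and their part in these differences was not tested.

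The methionine, cysteine and glutathione list stands next to Cth. Of its 14 tested genes, 1 rose and 1 fell, with a median log2 fold change of −0.43. Mat2a, the methionine adenosyltransferase that makes S-adenosylmethionine, rose from 724 ± 28.8 CPM to 1041 ± 124 CPM, or by 0.52 on the log2 scale (SE 0.15, adjusted p = 0.022), and its call held in 7 of 16 alternatives. It was lost without any 1 Control library (adjusted p 0.069 to 0.090), with library totals, upper-quartile scaling, at least 10 reads in every library, the replicate block and the GC content offset with or without that block. Gsr, the glutathione reductase, fell from 214 ± 42.0 CPM to 43.6 ± 16.0 CPM, or by 2.25 on the log2 scale (SE 0.28, adjusted p = 4.2e-05) and passed under all 16 alternatives. The Sertoli and spermatogonial marker sums were lower in the same libraries, and their part in the Gsr difference was not tested. Cbs, the enzyme before Cth in the route to cysteine, had no read in any of the 6 libraries.

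Among branched-chain and aromatic amino acid genes 3 of 15 were tested, and 0 passed the edgeR test, also at an unadjusted p under 0.05, with DESeq2 and with limma-voom. Of 12 tested genes of de novo purine and pyrimidine synthesis, which draws on glycine and one-carbon units, 1 rose and 0 fell in edgeR. At an unadjusted p under 0.05 the counts were 2 and 3, with DESeq2 they were 2 and 2, and with limma-voom 2 and 0. The gene that passed was Adss, the adenylosuccinate synthetase gene, which rose from 168 ± 40.4 CPM to 285 ± 40.5 CPM, or by 0.76 on the log2 scale (SE 0.21, adjusted p = 0.021). The call for Adss held in 9 of 16 alternatives and was lost with library totals, upper-quartile scaling and a GC content offset, with or without the replicate block. It was also lost without Control replicate 2, Control replicate 3 or Eef1g-cKO replicate 1 (adjusted p 0.071 to 0.12).

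ATF4 and its known targets outside the members formed a list of 25 genes, of which 13 were tested, 4 rose and 1 fell, with a median log2 fold change of 0.20. The 8 that did not pass were Slc7a1 (0.53), Atf5 (0.36), Gpt2 (0.20), Slc3a2 (0.01), Eif4ebp1 (−0.37), Ppp1r15a (−0.42), Atf3 (−0.53) and Cebpb (−0.59, all on the log2 scale). Ddit3, Trib3, Chac1, Sesn2 and Slc7a11 were among the genes below the low-count filter. Of all tested genes, 7.8% were higher and 6.01% lower, and since the list was chosen with earlier results of these data known, nothing is read from its counts against these shares. Atf4 itself had 297.68, 236.75 and 242.94 CPM in Control and 439.90, 522.64 and 639.46 CPM in Eef1g-cKO libraries, without overlap. It rose by 1.04 on the log2 scale (SE 0.18, adjusted p = 0.00090) and passed under all 16 alternatives. The summed L/Z markers were higher in the same libraries, but single markers differed. The 12 tested markers ran from −0.69 (Stra8) to 1.87 (Dmc1) on the log2 scale, with a median of 0.83. Of these, 6 passed as higher and 1 as lower. Sycp1 stood at 1.04, Sycp2 at 1.09 and Sycp3 at 1.11, and Meiob at 0.06 and Spo11 at 0.07. The part of these markers in the Atf4 difference was not tested. Slc38a2, a sodium-coupled transporter of small neutral amino acids, rose by 1.06 (SE 0.28, adjusted p = 0.017). Cebpg, which encodes a C/EBP partner of ATF4, rose by 0.92 (SE 0.28, adjusted p = 0.035). The calls held in 10 of 16 alternatives for Slc38a2 and in 7 of 16 for Cebpg. They were lost for Slc38a2 with library totals and with the replicate block, alone or with a GC content offset, and for Cebpg with library totals, upper-quartile scaling, at least 10 reads in every library and a GC content offset, with or without the block. The call was also lost for Slc38a2 without Control replicate 1, Control replicate 2 or Eef1g-cKO replicate 2 (adjusted p 0.066 to 0.12), and for Cebpg without any 1 Control library or Eef1g-cKO replicate 3 (adjusted p 0.069 to 0.16).

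Vldlr, a lipoprotein receptor gene, was named after its values were seen, since its mean of 19 reads fell under the limit for naming. It rose by 2.63 on the log2 scale (SE 0.69, adjusted p = 0.015), and the call was lost without Control replicate 1 or Control replicate 2 (adjusted p 0.070 and 0.075). Control held 3, 5 and 10 reads and Eef1g-cKO 22, 56 and 18, so Vldlr met the low-count filter through its Eef1g-cKO libraries. Its p-values are therefore a description, and no support is drawn from them or from its place among the genes that rose. Slc7a5, the light chain of the LAT1 transporter of large neutral amino acids, was the gene of this list that fell, by 1.63 on the log2 scale (SE 0.50, adjusted p = 0.035). That call held in 6 of 15 alternatives and was lost with no low-count filter, with the replicate block and with a GC content offset, alone or with the block. It also did not hold without any 1 Control library, Eef1g-cKO replicate 1 or Eef1g-cKO replicate 3 (adjusted p 0.057 to 0.14). On the log2 scale in the same libraries, Asns stood at 3.03, Aldh18a1 at 2.17, Psat1 at 0.71 and Mthfd2 at −0.06. Shmt2 stood at −0.50, Psph at −0.67, Phgdh at −0.88 and Shmt1 at −1.19. Many of these members are known as ATF4 targets.

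**Figure D5:**
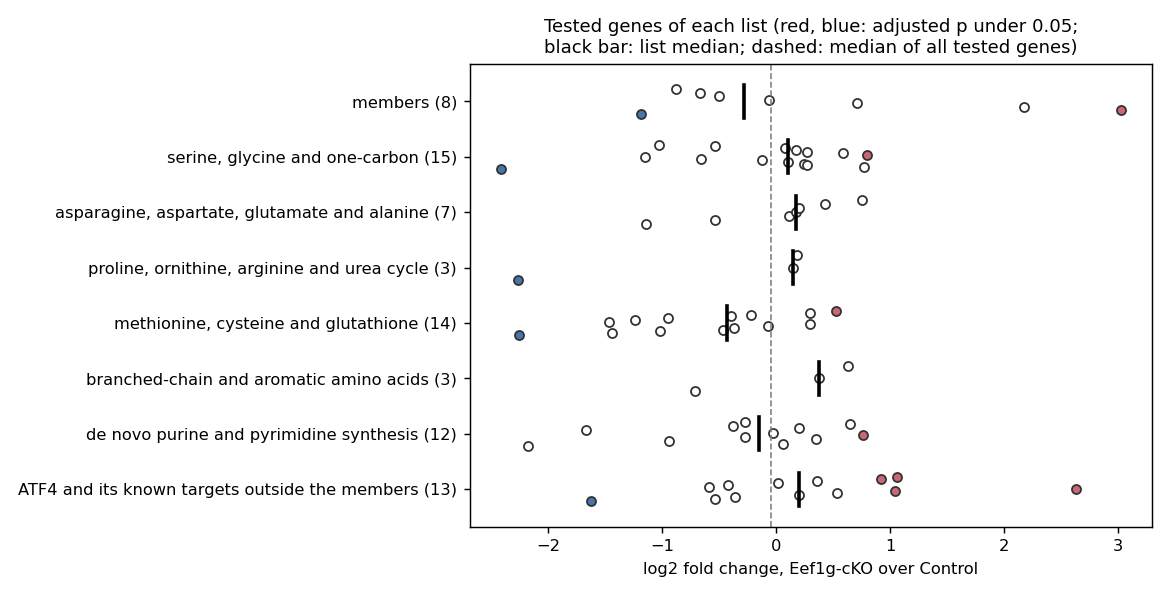
Log2 fold change of Eef1g-cKO over Control (horizontal axis) for each tested gene of the members and of the 7 lists, with the number tested in brackets, red and blue points for genes that passed as higher or lower, and black bars for list medians. Asns at 3.03 lies to the right of every other point, and Gcat at −2.42 lies farthest to the left.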

How the data were processed

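The authors trimmed and filtered paired-end reads of amplified full-length cDNA with fastp, aligned them to GRCm38 with HISAT2 2.2.1 and assigned them to genes with featureCounts 2.0.6. The deposited table holds raw counts for 6 libraries, neither normalised nor pooled. Use of strand and of multiply aligned reads is not stated.

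From these counts, edgeR 4.0.16 (R 4.3.3) kept genes passing filterByExpr (minimum count 10, minimum total 15), which left 8513 genes. Libraries were scaled by TMM, and genotype was tested with the robust quasi-likelihood F test, with Benjamini-Hochberg adjustment over all tested genes. A call is an adjusted p under 0.05. The SE was derived from the log2 fold change and its F statistic. The procedure was tested on simulated data. The study names a level and a fold limit but no adjustment; the adjustment was added here.

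The members and gene lists were chosen with earlier results of these data known. Named genes are all members, their isozymes, Eef1g, Atf4, the defining markers, the 5 genes most correlated with Asns (mean of at least 50 reads) and, per list and direction, up to 3 called genes with the largest change and a mean of at least 20 reads. Further L/Z markers and the other genes of the ATF4 list were named after their values were seen. A pair of list genes is not reported here and was left out of the list counts. Gene positions are those of the deposited table. Motif letters were searched in RefSeq promoters by script. Alternatives were RLE, library-total and upper-quartile scaling, other low-count filters, DESeq2 1.42.0, limma-voom (limma 3.58.1), a block on replicate number, a GC content offset, and leaving out each library.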

Additional observations from a re-analysis of the deposited data

How the results depend on the processing

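Asns passed the test under all 16 alternatives, but it was selected on this same contrast in these libraries, so this is a description. The number of members called higher was 1, and 2 with DESeq2 or a GC content offset, where Aldh18a1 joined Asns, and it was 1 to 2 when each library was left out in turn. The number called lower was then 0 to 1. Of the other synthesis genes, 3 were higher: 1 with library totals, upper-quartile scaling or a GC content offset, 0 with the replicate block and a GC content offset or with a log2 fold change limit of 1, and 1 to 4 when a library was left out. In the other direction 3 were lower, 6 with upper-quartile scaling or DESeq2, and 2 to 6 when a library was left out. Eef1g (−0.68) did not pass without a low-count filter (−0.64), with a replicate block (−0.69), with a GC content offset (−0.42) or with both (−0.43), and ran from −0.75 to −0.56 when a library was left out. Mthfd2 (−0.06) changed sign with a GC content offset (0.13, also with the replicate block), and ran from −0.16 to 0.071 when a library was left out. Over all tested genes, 664 were higher and 512 lower, against 333 higher with library totals, 291 higher with the fold limit, 303 lower with the replicate block and a GC content offset, and 374 to 834 higher and 238 to 668 lower when a library was left out, with the fewest calls without a Control library. The cause of these changes was not tested. Deviations of same-numbered libraries from their group means had correlations of −0.04, 0.02 and −0.05, and 1 of 6 libraries correlated best with its own number in the other group. These values showed no pairing by number, but 3 libraries per group are too few to settle it. What the numbers stand for is not given in the labels. The replicate block gave 496 higher and 377 lower genes. Library totals, upper-quartile scaling and no filter moved the median of all tested genes by −0.19, −0.12 and −0.25 on the log2 scale. The tested members with the fewest reads (Phgdh, Shmt2, Aldh18a1, 4 to 50 in a library) had SEs of 0.69 to 0.75 on the log2 scale, which sets the precision of their differences.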
